A study of Homo sapiens with 6 samples.

Results

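Keratins are the intermediate filament proteins of epithelial cells, and this account covers 9 keratin genes and S100A2 in the human cell line CFPAC1, which derives from a ductal adenocarcinoma of the pancreas. The genes were picked by name: KRT7, KRT8, KRT18, KRT19 and KRT20 as simple-epithelial members, and KRT5, KRT6A, KRT15, KRT17 and S100A2 as basal members. All 10 were found by identifier among the 19402 genes of the count table, and all 10 had enough counts to be tested. RNA came from 3 clone pools labelled IRF1-KO and 3 clone pools labelled WT, grown alike in IMDM with serum, L-glutamine and antibiotics. The IRF1-KO pools were made from clones infected with the lentiCRIPSv2 plasmid coding for Cas9 and a guide RNA against IRF1, and the WT pools from clones infected with the lentiCRIPSv2 plasmid, for which no guide is named. Every pool mixed clones isolated by dilution, and clone differences and technical spread within a group cannot be told apart.

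Keratin filaments are built from pairs of an acidic type I and a basic type II keratin. KRT8 (type II) with KRT18 (type I) is the founding pair of simple epithelia such as the pancreatic duct, where KRT7 and KRT19 are also made, and KRT20 marks intestinal and some glandular epithelium. KRT5, KRT6A, KRT15 and KRT17 belong to basal and activated layers of stratified epithelium, and with S100A2, a calcium-binding protein induced by p53-family factors, they are used as markers of the basal-like or squamous state of pancreatic cancer.

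The type II genes lie together on chromosome 12 with KRT18 as their type I neighbour, and the remaining type I genes lie on chromosome 17. Keratins share coding sequence with each other and with pseudogenes. Over whole coding sequences, 52.8% of the 50-base windows of KRT6A occur unchanged in a transcript of another gene, chiefly KRT6C and KRT6B. The share is 45.6% for KRT8 and 38.8% for KRT18, which have 50 and 67 pseudogenes of their name in GENCODE 29, and 17.2% for KRT17. It is 0% for KRT20 and S100A2. Counts of KRT6A, KRT8, KRT18 and KRT17 are therefore uncertain to the extent that reads could be split or discarded. KRT8 and KRT18 also overlap each other on opposite strands, as KRT7 overlaps KRT7-AS and KRT87P, and the strand setting of the counting is not given in the sources used here.

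Promoter windows of 300 bases, credited to RefSeq on GRCh38.p14, were at hand for 4 of the 10 genes: S100A2, KRT5, KRT8 and KRT20. The upstream one of the S100A2 windows (chr1:153565795-153566094, minus strand) is shown because S100A2 was the member whose groups did not overlap, and the KRT20 window (chr17:40885193-40885492, minus strand) because KRT20 was among the members that varied most between pools. Capitals mark a motif match.
S100A2: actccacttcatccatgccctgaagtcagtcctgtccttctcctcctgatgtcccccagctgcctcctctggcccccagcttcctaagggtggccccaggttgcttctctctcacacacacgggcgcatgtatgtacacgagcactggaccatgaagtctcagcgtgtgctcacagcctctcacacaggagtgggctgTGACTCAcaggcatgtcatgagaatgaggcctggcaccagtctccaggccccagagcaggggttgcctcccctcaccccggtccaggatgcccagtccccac
KRT20: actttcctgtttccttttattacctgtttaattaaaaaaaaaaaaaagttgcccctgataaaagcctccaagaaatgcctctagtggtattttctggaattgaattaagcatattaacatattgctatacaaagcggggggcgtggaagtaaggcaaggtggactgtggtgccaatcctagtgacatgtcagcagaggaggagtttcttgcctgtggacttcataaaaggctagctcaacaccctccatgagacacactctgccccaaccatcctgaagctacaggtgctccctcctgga
The motifs were searched on both strands. An IRF element, written as GAAA repeated after any 2 bases, occurs in 3.57% of all 35116 promoter windows of that length. The AP-1 site TGANTCA occurs in 7.71% of them, the TATA box TATAAA in 11.5% and the GC box GGGCGG in 45%. The only match in the 5 windows of these genes was the AP-1 site of S100A2, which begins 52 bases before the transcript start and overlaps no other match.

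Total counts were 16413682 to 28258075 per library. The IRF1 transcript stood at 117 to 132 CPM (counts scaled to library size, with TMM factors) in the libraries labelled IRF1-KO and at 82.6 to 91.3 CPM in WT libraries. It was thus not lower under the IRF1-KO label. Every library so labelled lay above every WT library, which was so for 8.03% of all tested genes. Its log2 fold change was 0.51 ± 0.10 (SE, edgeR adjusted p = 0.135). Counts over all exons need not show a small Cas9 lesion, and the directions below are those of the labelled groups. Of 8 markers of ductal and carcinoma epithelium, 6 had at least 87.0 CPM in every library, TSPAN8 had at least 17.8 CPM, and CFTR had at most 12 counts in any library. Nothing in the labels says that the pools were grown apart, so each p-value refers to the spread among these pools, which may be technical. Across all genes, 17 of 13388 passed an adjusted p of 0.05 in the edgeR quasi-likelihood test, which is 0.127% of those tested. Single libraries decided this count, which was 3 without IRF1-KO replicate 1, 3 without IRF1-KO replicate 3, 5 without WT replicate 2 and 91 without WT replicate 3.

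KRT19, KRT18, KRT8 and KRT7 were the most abundant members in every library of both groups, whereas KRT20 lay in the range of the basal members KRT17, S100A2 and KRT15. Levels per length are given as RPKM, the CPM divided by the listed exon length in kilobases. KRT19 was the most abundant at 676 ± 135 RPKM in IRF1-KO libraries and 729 ± 173 RPKM in WT libraries (SD, n = 3 each). KRT18 and KRT8 followed, with 230 to 447 and 229 to 333 RPKM over the 6 libraries, and these neighbours overlapped. KRT7 ranged from 39.3 to 194 RPKM and overlapped neither KRT8 above it nor KRT20 below it.

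The remaining members lay below KRT7. KRT20 (1.99 to 28.6 RPKM), KRT17 (3.01 to 25.6), S100A2 (6.66 to 13.2) and KRT15 (5.26 to 14.9) came next and overlapped each neighbour in this order. KRT6A, at 0 to 0.818 RPKM, and KRT5, at 0.0233 to 0.413 RPKM, were close to the detection limit and did not reach the range of KRT15. With the length of the principal transcript in place of all listed exons, KRT8 (mean 815 RPKM) came before KRT18 (590) and KRT17 (21.0) before KRT20 (15.4). Basal members together made up 1.23% to 1.65% of the summed RPKM of the 10 genes in IRF1-KO libraries and 1.63% to 3.08% in WT libraries.

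These values do not describe a squamous state in either group. TP63, the master regulator of stratified epithelium, had 2 to 6 counts per library, and KRT14, the usual type I partner of KRT5, had 1 to 4. KRT6B and KRT6C, the close copies of KRT6A, had at most 1 and 2 counts in any library. The genes are therefore called keratins and S100A2 here, without the name of a state.

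**Figure D1:**
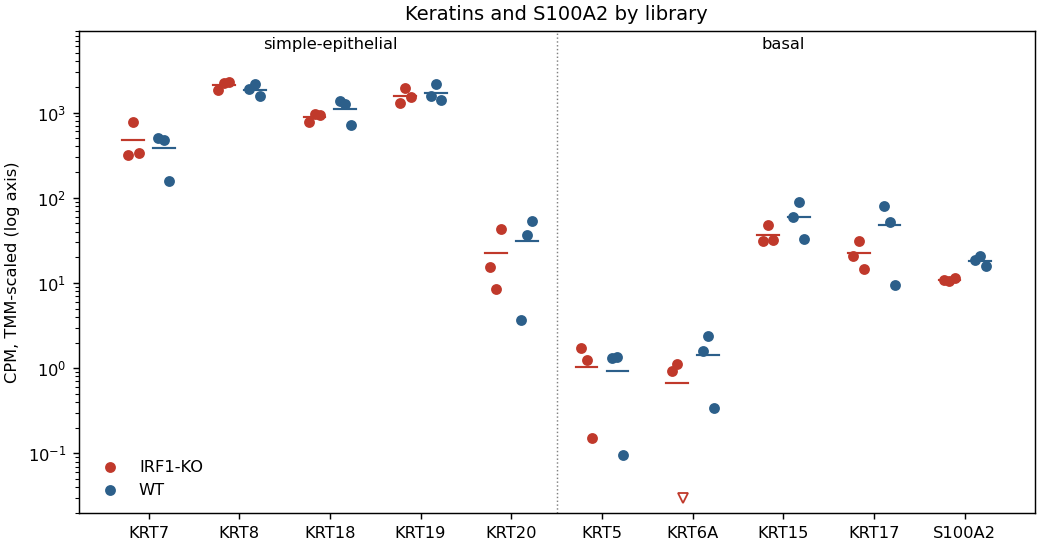
CPM (TMM-scaled, log axis) of the 10 genes in each library, IRF1-KO in red and WT in blue, with a line at each group mean. The open triangle stands for the count of 0 of KRT6A in IRF1-KO replicate 3. The groups overlap for every gene except S100A2.

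None of the 10 members passed the adjusted threshold (edgeR quasi-likelihood, Benjamini-Hochberg over all tested genes), where the background was 0.127% (0.112% lower and 0.0149% higher). At an unadjusted p of 0.05, 1 of 10 was lower, against 3.75% of all tested genes, and none was higher, against 5.39%, or 9.14% in either direction. Over all tested genes 53.3% had a negative log2 fold change, and so did 3 of 5 simple-epithelial and 4 of 5 basal members. The median log2 fold change was −0.11 for the simple-epithelial members, −0.75 for the basal members and −0.02 for all tested genes. With 5 genes per class, these class medians are the single values of KRT19 and S100A2. The basal class includes KRT6A and KRT5, which had few counts.

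S100A2 was the member with the clearest difference. It had 10.8, 10.4 and 11.4 CPM in IRF1-KO replicates 1 to 3, against 18.6, 20.7 and 15.7 CPM in WT replicates 1 to 3. Every library labelled IRF1-KO lay under every WT library, as was the case for 6.75% of all tested genes. No member had every IRF1-KO library over every WT library, which was so for 8.03% of tested genes. The group means were 10.9 ± 0.500 CPM in IRF1-KO and 18.3 ± 2.54 CPM in WT (SD, n = 3 each), from 177 to 381 counts per library. The fitted log2 fold change was −0.75 ± 0.16 (SE), a WT level 1.68 times that of IRF1-KO, and it was not past the threshold (edgeR adjusted p = 0.158). In DESeq2, S100A2 was past the threshold and lower (log2 fold change −0.75, adjusted p = 0.00834), beside 2.53% of all genes to which DESeq2 gave an adjusted p. Over the 15 alternatives the S100A2 value lay between −0.83 and −0.65, and its adjusted p between 0.00834 and 0.491. S100A2 (ENSG00000196754.10; GRCh38 chromosome 1, 153561108 to 153567890, minus strand) overlaps no other gene in the table.

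KRT17, a type I keratin induced in injured and activated epithelium, spread widely over the WT pools. It had 20.9, 31.1 and 14.6 CPM in IRF1-KO replicates 1 to 3, against 80.3, 52.1 and 9.42 CPM in WT replicates 1 to 3. WT replicates 1 and 2 were above all IRF1-KO libraries and WT replicate 3 was below all of them. The log2 fold change was −1.09 ± 0.69 (SE; edgeR adjusted p = 0.734), and it was −0.45 without WT replicate 1 and −0.64 with limma-voom. Without WT replicate 3 it was −1.55 (edgeR adjusted p = 0.0951).

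KRT15, a type I keratin of basal and progenitor cells, had 31.4, 48.1 and 31.6 CPM in IRF1-KO replicates 1 to 3, against 58.7, 89.2 and 32.5 CPM in WT replicates 1 to 3. IRF1-KO replicate 2 was above WT replicate 3, so the groups overlapped. Its log2 fold change of −0.70 ± 0.36 (SE) did not pass the threshold (edgeR adjusted p = 0.650), and it was −0.30 without WT replicate 2 and −0.97 without WT replicate 3.

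KRT6A and KRT5, type II keratins of stratified epithelium, were counted too sparsely for a comparison of levels. KRT6A had 15, 32 and 0 counts in IRF1-KO replicates 1 to 3, against 29, 44 and 7 in WT replicates 1 to 3. KRT5 had 28, 36 and 4 counts in IRF1-KO replicates 1 to 3, against 24, 25 and 2 in WT replicates 1 to 3. Replicate 3 was the lowest library for both genes in both groups, although WT replicate 3 was sequenced more deeply than the other WT libraries. The 95% exact Poisson intervals, which cover counting error only, reached 3.69 counts for the KRT6A count of 0 and 10.2 and 7.22 counts for the KRT5 counts of 4 and 2. Those limits lie below the intervals of the other libraries of the same group, which began at 8.40 counts for KRT6A and 15.4 counts for KRT5.

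Among the simple-epithelial members the pair KRT8 and KRT18 had fold changes of opposite sign. KRT8 had 1821, 2209 and 2290 CPM in IRF1-KO replicates 1 to 3, against 1869, 2143 and 1578 CPM in WT replicates 1 to 3 (log2 fold change 0.18 ± 0.15, SE; edgeR adjusted p = 0.803). KRT18 had 785, 962 and 926 CPM in IRF1-KO replicates 1 to 3, against 1371, 1252 and 706 CPM in WT replicates 1 to 3 (−0.32 ± 0.24, SE; edgeR adjusted p = 0.780). Both genes overlapped between groups, with WT replicate 3 the lowest library for each. The log2 fold change of KRT18 was −0.12 without WT replicate 1 and −0.54 without WT replicate 3, and that of KRT8 was 0.29 without IRF1-KO replicate 1, against 0.09 when WT replicate 3 was left out.

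KRT19, the smallest keratin and a duct marker, differed by less than the spread between pools. It had 1302, 1924 and 1513 CPM in IRF1-KO replicates 1 to 3, against 1563, 2157 and 1386 CPM in WT replicates 1 to 3. Its log2 fold change was −0.11 ± 0.21 (SE; edgeR adjusted p = 0.925). KRT7, the type II keratin of ducts, had 316, 777 and 336 CPM in IRF1-KO replicates 1 to 3, against 508, 480 and 157 CPM in WT replicates 1 to 3. IRF1-KO replicate 2 and WT replicate 3 lay at the ends of that range, and the log2 fold change of KRT7 (0.32 ± 0.52, SE) turned to −0.23 without IRF1-KO replicate 2 and to −0.03 without WT replicate 3.

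KRT20 had the largest range within a group among members with at least 67 counts in every library. It had 15.5, 8.52 and 42.9 CPM in IRF1-KO replicates 1 to 3, against 3.67, 37.0 and 52.8 CPM in WT replicates 1 to 3. WT replicate 1 had the lowest value and WT replicate 3 the highest, a 14.4-fold range within 1 group, and the IRF1-KO libraries lay between them. The log2 fold change was −0.48 ± 0.92 (SE; edgeR adjusted p = 0.926).

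**Figure D2:**
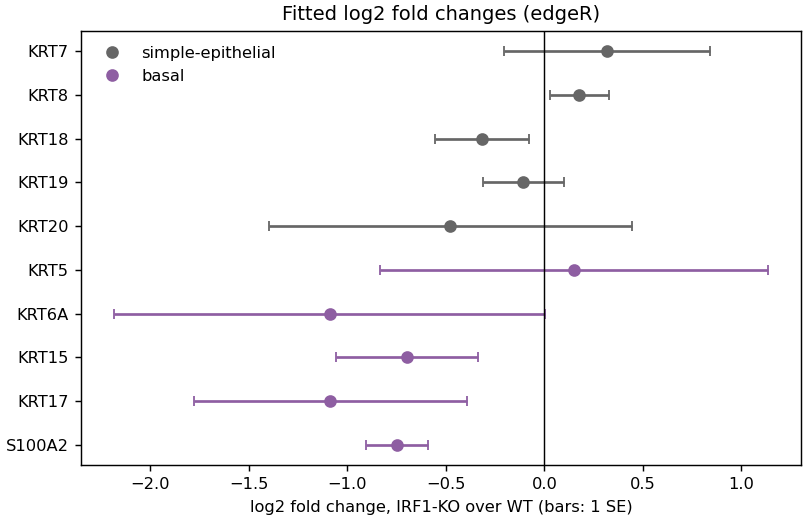
Fitted log2 fold change of IRF1-KO over WT for each gene (edgeR, bars of 1 SE), simple-epithelial genes in grey and basal genes in purple. S100A2 (−0.75 ± 0.16) has a short bar well away from 0, and KRT17, KRT6A, KRT5 and KRT20 have bars of 0.69 to 1.10.

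The ratio of basal to simple-epithelial members overlapped between the groups and was not tested. The log2 ratio of summed basal to summed simple-epithelial RPKM was −5.90, −6.03 and −6.33 in IRF1-KO replicates 1 to 3, against −4.98, −5.28 and −5.91 in WT replicates 1 to 3. IRF1-KO replicate 1 was just above WT replicate 3. The difference of the means was −0.70 (SD of 0.22 in IRF1-KO and 0.48 in WT, n = 3 each), and it was −0.49 without WT replicate 1 and −0.96 without WT replicate 3. The simple-epithelial sum was 1404 ± 246 RPKM in IRF1-KO and 1473 ± 333 RPKM in WT, whereas the basal sum was 20.7 ± 4.15 RPKM in IRF1-KO and 37.6 ± 16.5 RPKM in WT. The basal sums overlapped too, at 17.3 to 25.3 RPKM in IRF1-KO and 18.6 to 48.2 RPKM in WT. Whether basal keratin RNA differed was not tested. In bulk libraries, fewer cells with a basal keratin could not be told apart from less RNA per cell.

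The balance of type I to type II keratins among the members, computed after the data were examined, separated the groups. Other expressed keratins, such as KRT81, KRT80 and KRT10, were left out of both sums. KRT8, KRT18, KRT19 and KRT7 held 79.6% (IRF1-KO replicate 2) to 89.0% (WT replicate 2) of the summed RPKM of all keratins. With principal transcript lengths, the summed type I level was 1.54, 1.47 and 1.48 times the summed type II level in IRF1-KO replicates 1 to 3, against 1.89, 2.04 and 1.97 times in WT replicates 1 to 3. The ranges were narrow and did not overlap. Among single tested genes, every IRF1-KO library lay under every WT library for 6.75% and over every WT library for 8.03%. The log2 difference of the means was −0.40. It moved to −0.54 without KRT8, −0.52 without KRT19 and −0.34 without KRT18, and was −0.36 without KRT7. Leaving out each library in turn, or using listed exon lengths, gave −0.43 to −0.37. These variants reuse the values in which the separation was seen, so they are no separate support for it. Read as counts, KRT18 was 0.431, 0.435 and 0.404 times KRT8 in IRF1-KO replicates 1 to 3, against 0.734, 0.584 and 0.447 times in WT replicates 1 to 3. No p is given for these ratios, since they are scores over chosen genes.

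**Figure D3:**
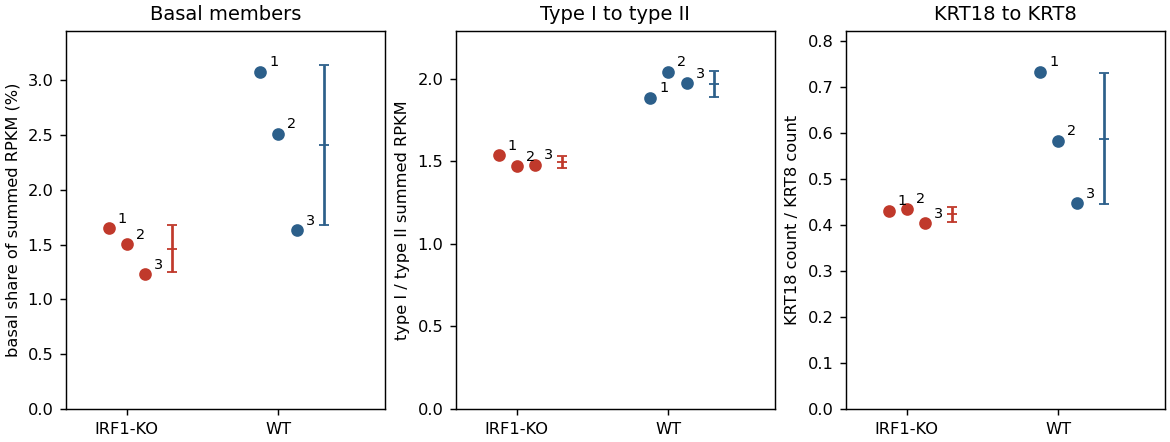
Basal share of the summed RPKM (percent), ratio of summed type I to type II RPKM, and ratio of KRT18 to KRT8 counts in each library. The type I and type II sums hold only the member keratins (principal transcript lengths). Libraries are numbered by replicate, with mean and SD at the right of each group. The basal share overlaps between groups (1.23% to 1.65% against 1.63% to 3.08%) and both other ratios do not.

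Libraries of the series also differed along transcript GC content. Genes over 65% GC deviated by 0.10, 0.46 and 0.31 log2 CPM in IRF1-KO replicates 1 to 3, against −0.59, −0.13 and −0.10 in WT replicates 1 to 3. Transcript GC content was 62.9% for KRT7, 61.8% for KRT19 and KRT17, 57.0% for KRT18, 53.4% for KRT8, 54.0% for S100A2 and 45.7% for KRT20, against a median of 48.5% over tested genes. After a correction for GC content the log2 fold changes were 0.26 ± 0.14 for KRT8, −0.28 ± 0.23 for KRT18, −0.27 ± 0.16 for KRT19, 0.02 ± 0.52 for KRT7 and −0.45 ± 0.93 for KRT20 (SE). For the basal members they were −0.67 ± 0.15 for S100A2, −1.30 ± 0.72 for KRT17, −0.65 ± 0.33 for KRT15, −1.04 ± 1.08 for KRT6A and 0.19 ± 0.98 for KRT5 (SE). None was past the threshold (edgeR adjusted p of 0.261 for S100A2).

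The spread between pools of 1 group was wide for most members. The within-group SD of log2 CPM was 1.74 for KRT6A, 1.68 for KRT20, 1.63 for KRT5 and 1.21 for KRT17, each above at least 98.3% of tested genes. The median over all tested genes was 0.21. KRT7 (0.85) and KRT15 (0.57) were also above most genes, whereas KRT8 (0.20) was near the median and S100A2 (0.15) was below it, at the percentile 28.8. A difference of the size seen for S100A2 would thus be smaller than the within-group SD of KRT7, KRT20, KRT5, KRT6A or KRT17.

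**Figure D4:**
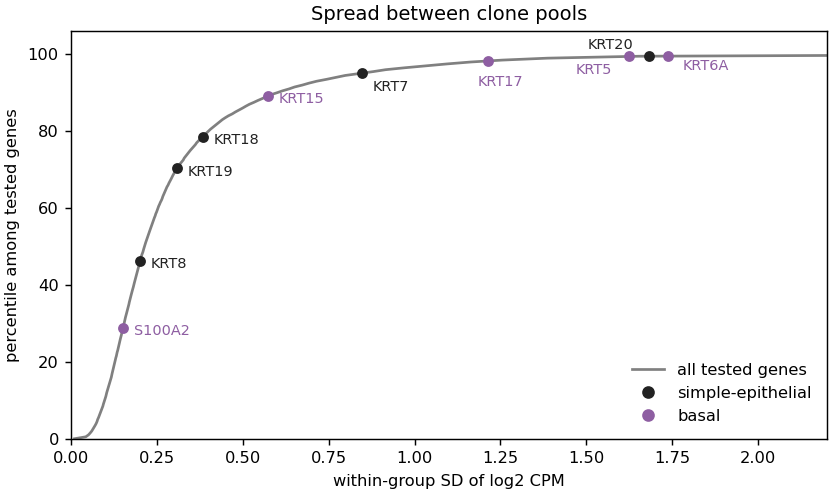
Within-group SD of log2 CPM (x axis) against its percentile among tested genes (y axis), with the grey line for all tested genes and a point for each member. S100A2 and KRT8 lie at or below the middle of the line, and KRT17, KRT5, KRT20 and KRT6A lie at its upper end.

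KRT17 and KRT20 deviated from their means with opposite signs in 4 of the 6 libraries and with the same sign in IRF1-KO replicate 1 and WT replicate 2. The ratio of their counts was 1.35, 3.65 and 0.339 in IRF1-KO replicates 1 to 3, against 21.9, 1.41 and 0.179 in WT replicates 1 to 3. WT replicate 1, with the most KRT17, had the least KRT20, and WT replicate 3 had the reverse. Pearson's r of log2 CPM was −0.71 (Spearman's rho −0.83) for KRT17 with KRT20, and 0.93 (rho 0.94) for KRT17 with KRT18. For S100A2, r was 0.72 with KRT15, 0.60 with KRT18, 0.50 with KRT17, 0.02 with KRT20 and −0.08 with KRT7. These are descriptions over n = 6 libraries that share 1 cell line and differ in depth and GC trend.

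Genes most like the leading member of each class were ranked by Pearson's r over the 6 libraries among 10995 genes with a mean of at least 5 CPM. For KRT19 they were PLCB3 (r = 0.99), ADGRG6 (0.99) and HID1 (0.98), and for KRT17 they were ZNF121 (0.99), CCDC91 (0.99) and DSG3 (0.99), a desmosomal cadherin of stratified epithelium. With so few libraries such values are common: 151 genes had an r over 0.9 with KRT19 and 175 with KRT17.

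**Figure D5:**
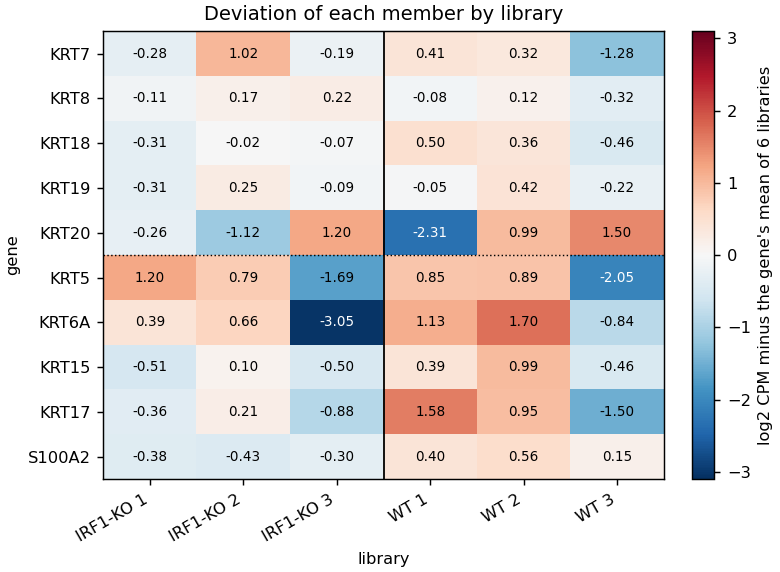
Log2 CPM of each member (rows) minus its mean over the 6 libraries (columns), red for above and blue for below the mean, with IRF1-KO libraries left of the line and WT libraries right of it. S100A2 is below its mean in all 3 IRF1-KO libraries and above it in all 3 WT libraries. KRT17 and KRT20 have opposite signs in 4 of the 6 libraries, among them WT replicates 1 and 3.

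Of 46 other keratin genes in the table, 8 were tested and none passed the adjusted threshold. Their median log2 fold change was 0.25, and 3 had negative values, against 53.3% of all tested genes. At an unadjusted p of 0.05 KRT13 was lower, against 3.75% of all tested genes, and KRT81 higher, against 5.39%. KRT13, a keratin of non-keratinised stratified mucosa, had 1.10, 0.873 and 0.824 CPM in IRF1-KO replicates 1 to 3, against 8.26, 27.9 and 0.529 CPM in WT replicates 1 to 3. WT replicates 1 and 2 were high and WT replicate 3 was under every IRF1-KO library. KRT4, the type II partner of KRT13, had a positive log2 fold change (1.60 ± 0.69, SE; edgeR adjusted p = 0.553). KRT81, a hair-type keratin, had 154, 440 and 49.4 CPM in IRF1-KO replicates 1 to 3, against 78.4, 65.3 and 39.3 CPM in WT replicates 1 to 3, and IRF1-KO replicate 2 stood far above the rest, as it did for KRT7.

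Among 19 other S100 genes, 11 were tested, with a median log2 fold change of −0.19. Of these, 10 had negative values, against 53.3% of all tested genes. None passed the adjusted threshold. S100A13 (−0.41 ± 0.15, SE) and S100A11 (−0.32 ± 0.13, SE) were lower at an unadjusted p of 0.05, against 3.75% of all tested genes (edgeR adjusted p of 0.439 and 0.524). As for S100A2, every IRF1-KO library lay under every WT library for these 2 genes, against 6.75% of all tested genes. The reverse held for 1 gene, S100A3, against 8.03%. S100A6, the most abundant S100 gene, had a log2 fold change of −0.28 ± 0.20 (SE).

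The squamous programme list held 30 genes, of which 21 were tested. None passed the adjusted threshold, and the median log2 fold change was −0.52. Of those tested, 17 had negative values, against 53.3% of all tested genes. At an unadjusted p of 0.05, 1, SPRR3, was lower, against 3.75% of all tested genes, and none was higher, against 5.39%. SPRR3, a cornified envelope precursor, had 3.78, 2.37 and 1.498 CPM in IRF1-KO replicates 1 to 3, against 19.1, 50.8 and 1.11 CPM in WT replicates 1 to 3, the same order of WT libraries as KRT13. LAMA3, a chain of laminin-332, had 588, 613 and 453 CPM in IRF1-KO replicates 1 to 3, against 1234, 824 and 433 CPM in WT replicates 1 to 3 (−0.59 ± 0.35, SE). WT replicate 3 was the lowest library for LAMA3, as for KRT17 and DSG3.

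Keratin filaments end at desmosomes and hemidesmosomes, and all 16 listed anchor genes were tested. None passed the adjusted threshold, and the median log2 fold change was 0.08. Values were positive for 10 and negative for 6, against 53.3% negative over all tested genes. FLG, a filament-aggregating protein, and EVPL, a desmosomal plakin, were higher at an unadjusted p of 0.05, against 5.39% of all tested genes. None was lower, against 3.75%. FLG was sparse and highest in IRF1-KO replicate 1. It had 4.57, 1.71 and 0.787 CPM in IRF1-KO replicates 1 to 3, against 0.383, 0.544 and 0.625 CPM in WT replicates 1 to 3. EVPL had 83.6, 60.0 and 81.7 CPM in IRF1-KO replicates 1 to 3, against 57.5, 61.2 and 47.7 CPM in WT replicates 1 to 3. PLEC, the plakin that links keratins to hemidesmosomes, had a log2 fold change of 0.53 ± 0.23 (SE; edgeR adjusted p = 0.553).

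Of 23 listed regulators of keratin and squamous genes, 21 were tested and none passed the adjusted threshold in edgeR. Negative values were found for 16 of them (median −0.16), against 53.3% of all tested genes. HNF4A, an endodermal transcription factor, had a log2 fold change of −0.64 ± 0.22 (SE; edgeR adjusted p = 0.404). Among 15 other intermediate filament genes, 8 were tested with a median log2 fold change of 0.13, and LMNB2, a nuclear lamin, had 162, 164 and 149 CPM in IRF1-KO replicates 1 to 3, against 103, 105 and 120 CPM in WT replicates 1 to 3 (0.54 ± 0.11, SE; edgeR adjusted p = 0.141).

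Several markers of leukocytes, stroma, islets and acini were at or near 0, but others of the leukocyte and fibroblast lists were not. CD68 had 126 to 184 CPM, LYZ 13.4 to 75.0 CPM and COL1A1 25.9 to 74.5 CPM. Of the endothelial markers, KDR had 3.81 to 6.52 CPM. The leukocyte gene PTPRC had at most 2 counts in any library, as did CD3E, and the stromal genes DCN, FAP and THY1 had at most 2. INS, SST, CPA1 and PNLIP were at 0 in all 6 libraries. The summed level of the 9 fibroblast markers was 4.16 to 8.08 RPKM in IRF1-KO libraries and 3.41 to 5.73 RPKM in WT libraries, most of it COL1A1. That of the 8 leukocyte markers was 67.7 to 85.4 RPKM in IRF1-KO libraries and 81.0 to 102 RPKM in WT libraries, most of it CD68 and LYZ, and their part in the keratin values was not tested.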

How the data were processed

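Poly(A)-selected RNA of 6 clone pools was sequenced. The authors deposited whole-number counts per gene, in the layout of featureCounts per the file headers, with exon lengths; featureCounts 0.6.1, edgeR 3.2.2 and GRCh38 (hg38) are named in the submitters' processing notes. For the aligner, the annotation and the strand setting, the sources used here give nothing.

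Symbols were matched to 19342 identifiers from a table of current names and to 56 from GENCODE 29. Counts were fitted in R 4.3.3 with edgeR 4.0.16 (filterByExpr, TMM, robust quasi-likelihood F test, two-sided, Benjamini-Hochberg over 13388 genes, threshold 0.05). Standard errors are those implied by the F statistic. RPKM are TMM-scaled CPM per kilobase of listed exon or of the principal GENCODE 29 transcript. Correlations and SDs used log2 CPM with a prior count of 2. Each fit was repeated with upper-quartile or RLE scaling, without the filter or with 5 CPM required in 3 libraries, with DESeq2 1.42.0, with limma-voom (limma 3.58.1), with the replicate number as a block, a GC offset (natural spline, 5 degrees of freedom), both together, and leaving out each library. Libraries of a group differed by a chi-square of 22.3 to 47.2 per degree of freedom, so none was a duplicate. The procedure was tested on simulated counts.

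The members, lists and tests were chosen with earlier results of these data known. Named were the members, IRF1, up to 3 genes per list with the smallest p, and the 3 genes most correlated with the most abundant member of each class; TP63, KRT14, KRT6B, KRT6C, S100A6 and single markers were named after their values were seen. The table had 0 count columns without a sample. Some items are not reported here.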

Additional observations from a re-analysis of the deposited data

How the results depend on the processing

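No member of the 10 passed the adjusted threshold under 14 of the 15 alternatives, and 1, S100A2, did with DESeq2 (log2 fold change −0.75). KRT8, KRT18, KRT15, KRT17, KRT6A and S100A2 kept their sign under every alternative in which they could be fitted; the stricter filter left out KRT5 and KRT6A. Members that did not pass the threshold changed sign as follows: KRT19 to 0.04 without IRF1-KO replicate 1 and to 0.10 without WT replicate 2, KRT7 to −0.23 without IRF1-KO replicate 2 and to −0.03 without WT replicate 3, KRT20 to 0.16 without WT replicate 3, and KRT5 to −0.35, −0.05 and −0.38 without IRF1-KO replicate 1, IRF1-KO replicate 2 and WT replicate 3. Over all left-out libraries the values reached 0.60 for KRT7, −0.27 for KRT19, −1.38 for KRT20 and 0.68 for KRT5. The cause was not tested. The count of genes past the threshold was 17, and it was 31 with no filter, 332 with DESeq2, 31 with the replicate number as a block and 11 with the block and the GC correction together. Leaving out 1 library gave 3 to 91. The difference of the basal to simple log2 ratio lay between −0.96 and −0.49 without single libraries, and between −0.75 and −0.65 with other scalings, lengths or without S100A2.

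Same-numbered libraries did not deviate together in every pair (correlations of deviations of −0.02, 0.25 and 0.06 for numbers 1, 2 and 3), so the numbers are not taken to pair the pools. With the block no member was called. The limits are 3 pools per group, which allow an exact permutation p of no less than 0.1 for a single value, and the few counts of KRT5 and KRT6A.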
